A study of Mus musculus with 12 samples.

Results

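Id1, Id2 and Id3, the Id inhibitors, and Tcf3, Tcf4 and Tcf12, the E proteins, were described across polysomal and total RNA of wild-type and Ddx27-/- C2C12 cells, an established mouse myoblast line. The 6 genes were taken by name from the authors' complete tables, which list 13768 genes in all, and each of the 6 has a row for both genotypes. Their identifiers, in that order, are ENSMUSG00000042745, ENSMUSG00000020644, ENSMUSG00000007872, ENSMUSG00000020167, ENSMUSG00000053477 and ENSMUSG00000032228. E proteins are basic helix-loop-helix transcription factors that pair with tissue-specific partners such as Myod1 and bind E-box DNA. Id proteins keep the helix-loop-helix that makes the pair but have no DNA-binding basic region, so they hold E proteins in complexes that do not bind DNA. In myoblasts they are known as brakes on muscle differentiation, and BMP signals raise their transcription. Tcf3 (which makes E12 and E47), Tcf4 (E2-2) and Tcf12 (HEB) carry the E protein identifiers here and are not the Wnt factors Tcf7l1 and Tcf7l2 that share older names with them.

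Wild-type cells and cells labelled Ddx27-/-, a knockout of a nucleolar RNA helicase gene, each gave 2 kinds of RNA: the whole of the cell (total) and that carried on isolated polysomes, the clusters of ribosomes on messenger RNA. The labels name no treatment, growth stage or clone, so whether the knockout is 1 clone is not known from them. Of the 12 labelled samples, 3 in each of 4 groups, 11 libraries were analysed, 3 in each group but for 2 of knockout total RNA. The labels do not say that the samples of a group are separate cultures, so p-values measure only the spread between these samples, which may be technical. The RNA is from bulk cells, in which fewer cells of a type and less RNA per cell cannot be told apart. A value is a normalised read count: reads of a gene times 1 factor per library set by the authors.

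Depth was 13683674 to 27347878 reads in listed genes per library, and a library held 654 to 15219 reads of any member. Ddx27 was at 139 to 215 normalised read counts in the wild-type libraries and 31.3 to 52.6 in the knockout ones. The myoblast factor Myod1, itself an E protein partner, was at 69.7 to 177 in the wild type but at 0.363 and 1.13 in the knockout total libraries and 0, 0 and 0.0861 in the polysomal ones, where a 0 allows up to 3 reads, or 0.204 and 0.257. This defining marker of the label was thus at or near 0 in the knockout, and other genes of the list of 8 myoblast markers were lower too. The listed ones summed to 3035 to 4125 in wild-type total RNA (7 genes) and 1156 to 1282 in knockout total RNA (6 genes, Pax7 having no knockout row). Of 6 tested in knockout over wild-type total RNA, Myod1 (−6.38), Des (−1.73), Itga7 (−1.17) and Cdh15 (−1.03) were lower and Myf5 (0.98) was higher. Polysomal libraries stood apart from each other in 2 measured ways. The gene models where ribosomal RNA reads gather (Gm26924, mmu-mir-6236, Lars2, Gm15564) made up 5.86%, 14.4% and 0.664% of wild-type polysomal replicates 1 to 3 and 23.0%, 32.4% and 0.381% of the knockout ones, against at most 0.134% of total RNA. Levels also followed gene length. Per doubling of length they changed by −0.23, −0.53 and −0.14 on the log2 scale in wild-type polysomal replicates 1 to 3 against mean total RNA, and by −0.16, 0.17 and 0.11 in the knockout ones. The Id genes are short (deposited lengths of 1653, 1267 and 1786 bases for Id1, Id2 and Id3) and Tcf3, Tcf4 and Tcf12 are long (4745, 12754 and 15355), so each result is also given with that trend removed where this changes it.

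In wild-type cells all 3 Id transcripts rose in polysomal over total RNA, by 3.42-fold to 5.95-fold, and of the E proteins Tcf4 fell. Of the 6 genes 3 were higher and 1, Tcf4, was lower, against 22.7% of 12380 tested genes called, 8.89% higher and 13.8% lower. The median over the 6 was 1.12 on the log2 scale, and −0.02 over all genes tested. Here and below, a gene is called higher or lower when limma's adjusted p over all genes tested is under 0.05, and differences are of log2 of the value plus 1. Where groups of libraries are said not to overlap, this only describes the values. The share of all genes without overlap was not counted.

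Id1 is a short-lived inhibitor induced by BMP and serum. It was at 93.5, 87.4 and 64.7 normalised read counts in replicates 1 to 3 of wild-type total RNA, and polysomal RNA gave 367, 980 and 320. Every polysomal library was above every total library, and polysomal replicate 2 was far above the other two. The rise was 2.57 ± 0.42 on the log2 scale (SE, 3 against 3, limma adjusted p = 0.00731). Id2 binds E proteins and is also known to bind the retinoblastoma protein. It was at 59.8, 59.2 and 61.2 in total RNA and at 168, 256 and 221 in polysomal RNA. Here no polysomal library stood far from the others. Id2 rose by 1.80 ± 0.19 (limma adjusted p = 0.00212), with the smallest error of the 3. Id3, a close relative of Id1 with overlapping roles, was at 166, 163 and 134 in total RNA and at 344, 1226 and 349 in polysomal RNA. Again the groups did not overlap, and polysomal replicate 2 was the highest. The rise was 1.77 ± 0.47 (limma adjusted p = 0.0354).

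Tcf3, whose E12 and E47 products pair with the myogenic factors, was at 220, 211 and 213 normalised read counts in wild-type total RNA, and polysomal RNA gave 246, 461 and 234. The polysomal values lay above the total ones, by little except in replicate 2, and the difference of 0.47 ± 0.27 did not pass (limma adjusted p = 0.229, 95% interval −0.16 to 1.11). Tcf4 went the other way, at 181, 180 and 140 in total and 104, 52.7 and 98.5 in polysomal RNA. It fell by 1.02 ± 0.28 on the log2 scale (limma adjusted p = 0.0405), lowest in polysomal replicate 2. Tcf12, the E protein HEB, was at 163, 177 and 172 in total and 122, 68.2 and 143 in polysomal RNA. These groups did not overlap either, yet the difference of −0.68 ± 0.28 did not pass (limma adjusted p = 0.113).

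**Figure D1:**
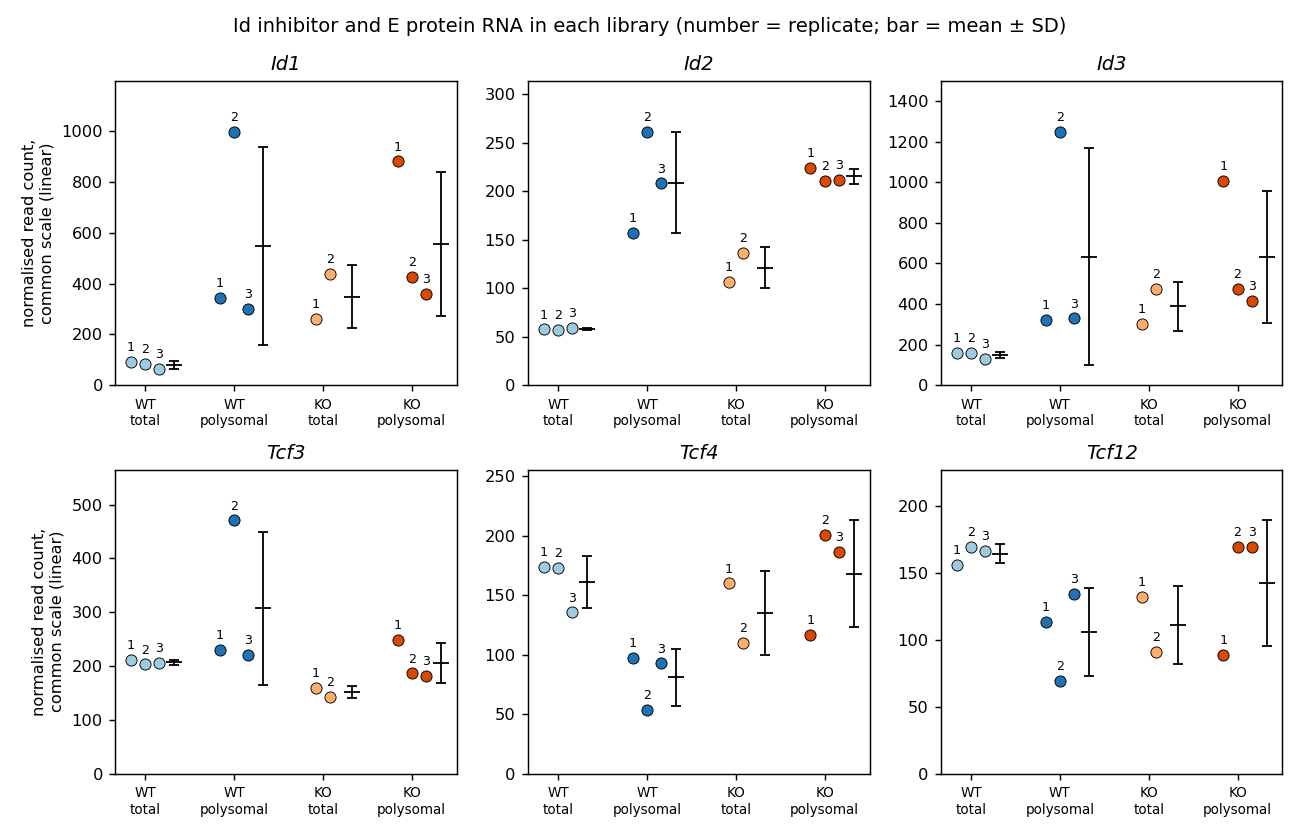
Normalised read counts of the 6 genes on 1 scale common to all libraries (linear y axes from 0), with 1 point per library, its replicate number beside it, and the mean ± SD of the group as a bar; WT is wild type and KO Ddx27-/-. In wild-type polysomal RNA replicate 2 lies highest for Id1, Id3 and Tcf3 (999, 1250 and 471) and lowest for Tcf4 and Tcf12 (53.7 and 69.5), and in knockout polysomal RNA replicate 1 holds the same places (882, 1006 and 249, and 117 and 88.6).

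With the length trend removed, Id1, Id2 and Id3 still rose, by 2.27, 1.38 and 1.5 (limma adjusted p = 0.00422, 0.00251 and 0.0303), while Tcf4 stood at −0.44 (adjusted p = 0.109) and Tcf12 at −0.02 (adjusted p = 0.925). Without total replicate 1, 2 or 3, Id3 no longer passed (adjusted p = 0.108, 0.107 and 0.141) and neither did Tcf4 (0.15, 0.148 and 0.107). Nor did Id1 without total replicate 3 (0.0558) or Tcf4 without polysomal replicate 1 (0.0521), whereas without polysomal replicate 2 Tcf12 did pass, at −0.37 (0.0238). Without that library, the steepest in length trend, Id1, Id2 and Id3 were called at 2.07, 1.67 and 1.17 (limma adjusted p = 1.76e-05, 1.98e-05 and 8.08e-05), beside 47.3% of all genes called in the same fit. In the authors' deposited table the log2 fold changes were 2.76, 1.84 and 2.05 for Id1, Id2 and Id3 (FDR 4.25e-09, 1.07e-08 and 9.01e-05) and 0.55, −0.97 and −0.62 for Tcf3, Tcf4 and Tcf12 (FDR 0.187, 0.0118 and 0.123).

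The RefSeq promoter table (GRCm38.p6, the build mm10) holds sequence before the start of Id2 and Id3, printed here, but none for Id1. Whether this DNA has a part in the differences above was not tested. Each run is the 250 bases that end at the base before the annotated start, on the gene's strand, 5′ to 3′. Id2 lies on chromosome 12 at 25093799 to 25096092 and its run is chr12:25096093-25096342 (minus strand). Id3 lies on chromosome 4 at 136143822 to 136145392 and its run is chr4:136143572-136143821 (plus strand). Capitals mark matches, on either strand, of the E-box CANNTG, the BMP-responsive palindrome GGCGCC and the CCAAT box.
Id2: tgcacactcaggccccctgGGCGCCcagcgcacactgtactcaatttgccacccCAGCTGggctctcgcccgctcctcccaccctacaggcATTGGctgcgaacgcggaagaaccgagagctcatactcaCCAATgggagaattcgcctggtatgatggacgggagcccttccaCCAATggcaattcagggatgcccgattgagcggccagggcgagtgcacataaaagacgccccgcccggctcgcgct
Id3: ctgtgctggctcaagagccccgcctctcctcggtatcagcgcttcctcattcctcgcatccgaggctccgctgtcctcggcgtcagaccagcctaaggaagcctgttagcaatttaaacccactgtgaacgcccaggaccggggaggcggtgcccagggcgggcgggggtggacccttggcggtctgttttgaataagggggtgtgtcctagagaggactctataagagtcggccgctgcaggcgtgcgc
The Id2 run holds 1 E-box, 1 GGCGCC and 3 CCAAT boxes (1 of them reversed), none overlapping another. No match of these 3 motifs, of TATAAA or of the CRE TGACGTCA stands in the Id3 run, which says only that these letters are not in this window. Of 32851 promoter windows of the same length, 66.2% hold CANNTG, 9.6% GGCGCC, 33.8% CCAAT, 12.4% TATAAA and 1.5% TGACGTCA. The base composition was alike, with 62.8% G and C in each run.

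In knockout cells none of the 6 genes passed in polysomal over total RNA, although all 6 estimates were positive. Limma called 0 of 6, against 2.76% of 12070 genes called, 0.911% higher and 1.85% lower. At an unadjusted p under 0.05 there was 1, Id2, edgeR called 0 and DESeq2 called 1, again Id2. Over all genes, 22.7% had an unadjusted p under 0.05 in limma, edgeR called 2.75% and DESeq2 10.5%. The members' median was 0.55 on the log2 scale, and 0.04 over all genes tested.

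Id2 was the steadiest of them, at 102 and 130 normalised read counts in knockout total replicates 1 and 2 and at 219, 204 and 211 in polysomal replicates 1 to 3. The polysomal values lay close together and above both total values. The difference was 0.87 ± 0.23 (SE, 3 against 2, limma adjusted p = 0.0796, 95% interval 0.36 to 1.39). It passed without polysomal replicate 1 (0.85, adjusted p = 0.0373) and with the length trend removed (0.93, adjusted p = 0.0178). Id1 was at 248 and 417 in total RNA and at 860, 414 and 358 in polysomal RNA, so the groups overlapped and replicate 1 alone was well above the total libraries. Its difference of 0.64 ± 0.41 did not pass (limma adjusted p = 0.382). Id3 followed the same order of libraries, at 287 and 453 in total and 981, 460 and 414 in polysomal RNA, with a difference of 0.66 ± 0.40 (limma adjusted p = 0.362).

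For the E proteins, knockout polysomal replicate 1 again differed from the other two. Tcf3 was at 152 and 137 normalised read counts in total RNA and at 243, 181 and 181 in polysomal RNA, a difference of 0.46 ± 0.24 (limma adjusted p = 0.289) without overlap. Tcf4 was at 152 and 105 in total RNA and at 114, 194 and 186 in polysomal RNA, a difference of 0.34 ± 0.30 (limma adjusted p = 0.545). Tcf12 was at 126 and 86.6 in total RNA and at 86.4, 164 and 169 in polysomal RNA, a difference of 0.36 ± 0.34 (limma adjusted p = 0.568). Both long genes were thus low in replicate 1, where the short Id1 and Id3 were high, and both were lower in total replicate 2, where the Id genes were higher. Knockout total replicates 1 and 2 also stood apart in length trend, at 0.11 and −0.11 from their mean. In the authors' deposited table the knockout log2 fold changes of the 6 genes lay between 0.35 (Tcf4) and 0.87 (Id2), with FDR of 0.0665 for Id2 and 0.296 or more for the others.

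**Figure D2:**
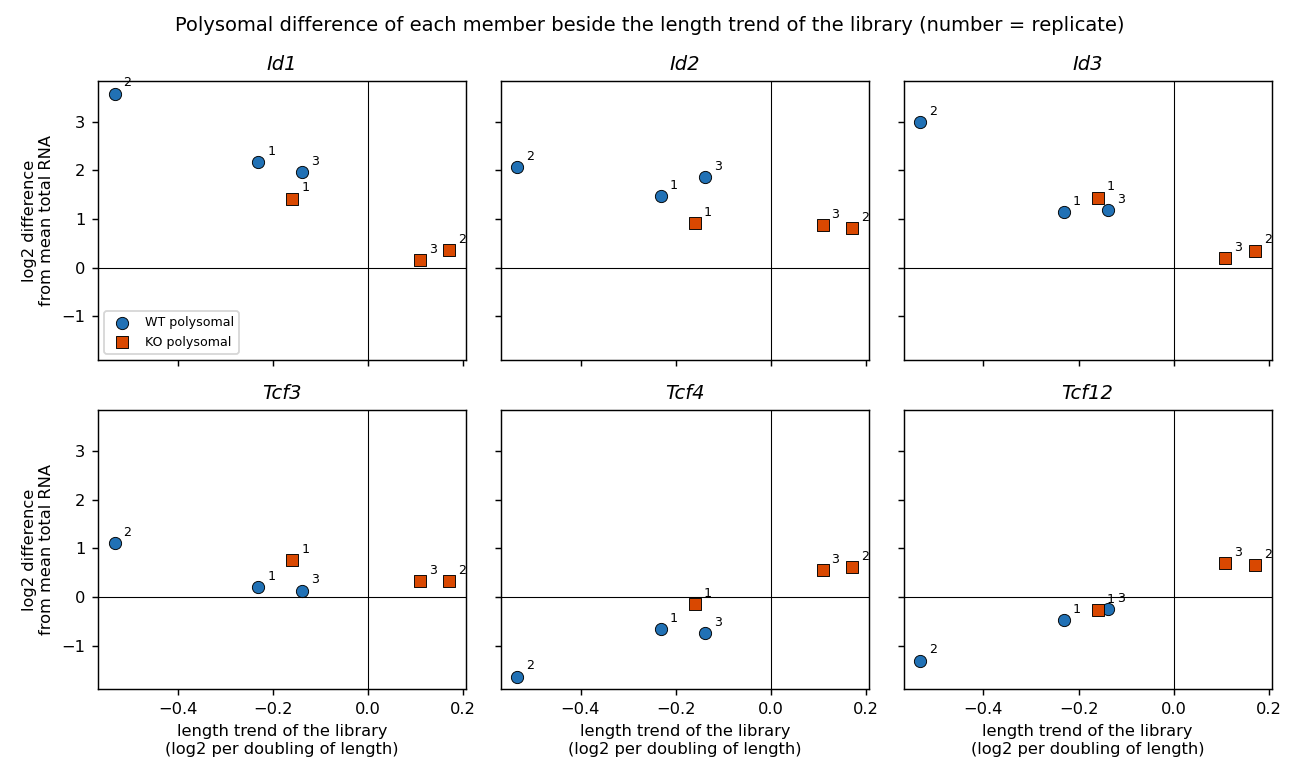
Log2 difference of each polysomal library from the mean total RNA of its genotype (y) against that library's trend on gene length (x, log2 change per doubling of length), 1 panel per gene, circles for wild type and squares for knockout, with replicate numbers. Id1 and Id3 are highest at the steepest negative trend (3.58 and 2.99 in wild-type replicate 2) and Tcf4 and Tcf12 lowest there (−1.64 and −1.31), while Id2 spans 1.47 to 2.07 over the wild-type libraries and 0.82 to 0.92 over the knockout ones.

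The genotypes' polysomal differences were compared by their own test. Knockout minus wild type, the difference was −1.93 ± 0.65 on the log2 scale for Id1 (limma adjusted p = 0.154, unadjusted 0.0126), −0.93 ± 0.28 for Id2 (adjusted 0.128, unadjusted 0.00593) and −1.11 ± 0.70 for Id3 (adjusted 0.363). It was −0.01 ± 0.37 for Tcf3 (limma adjusted p = 0.991), 1.36 ± 0.44 for Tcf4 (adjusted 0.143, unadjusted 0.0105) and 1.04 ± 0.47 for Tcf12 (adjusted 0.237, unadjusted 0.0488). Limma called 0 of 6 genes, 4 had an unadjusted p under 0.05, edgeR called 0 and DESeq2 called 2, Id1 and Id2, both lower. The background was 0.265% of 12474 genes, 0.224% higher and 0.0401% lower, by limma. Over all genes, 20.9% had an unadjusted p under 0.05 in limma, edgeR called 0.254% and DESeq2 7.55%.

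By library, Id1 in polysomal RNA against mean total RNA stood at 2.17, 3.58 and 1.97 in the wild type and at 1.42, 0.36 and 0.16 in the knockout. Id2 was at 1.47, 2.07 and 1.86 in the wild type and at 0.92, 0.82 and 0.87 in the knockout. For both genes each knockout library was below each wild-type library. Tcf4 was at −0.67, −1.64 and −0.75 in the wild type and at −0.15, 0.61 and 0.55 in the knockout. For the other members the genotypes overlapped. Id3 was at 1.15, 2.99 and 1.18 in the wild type and at 1.44, 0.35 and 0.2 in the knockout. Tcf3 was at 0.2, 1.1 and 0.13 against 0.75, 0.32 and 0.33, and Tcf12 at −0.48, −1.31 and −0.25 against −0.27, 0.65 and 0.69. The share of all genes whose libraries separate by genotype in this way was not counted. Leaving out the polysomal library of each genotype with the most negative length trend (wild-type replicate 2 and knockout replicate 1), a choice made after seeing the data, gave calls for 5 of 6 genes: Id1, Id2 and Id3 lower (−1.81, −0.82 and −0.89, limma adjusted p = 0.00802, 0.0301 and 0.0404) and Tcf4 and Tcf12 higher (1.29 and 1.04, adjusted p = 0.0106 and 0.016). Beside that count, 23.2% of all genes passed in the same fit. With the length trend removed from all libraries, no gene of the 6 passed, and Id2, Tcf4 and Tcf12 shrank to −0.49, 0.72 and 0.32. Id1 stood at −1.61 (limma adjusted p = 0.13), Id3 at −0.83 and Tcf3 at −0.18 in that fit.

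In total RNA the knockout cells held more Id RNA and slightly less Tcf3 and Tcf12 RNA than the wild type. On a scale common to all libraries (median of ratios), Id1 was 4.29-fold, Id3 2.54-fold and Id2 2.06-fold higher, and Tcf3 and Tcf12 were 1.36-fold and 1.49-fold lower. Of the 6 genes 3 were higher and 2 lower, against 36.8% of 11993 genes called, 17.9% higher and 18.9% lower. The median was 1.34 over the Id genes and −0.45 over the E proteins, against −0.02 over all genes.

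Id1 was at 89.8, 84.0 and 62.7 normalised read counts on the common scale in wild-type total RNA, and knockout total RNA gave 260 and 437. The lower knockout library was thus well above the highest wild-type one, and the rise was 2.10 ± 0.24 (SE, 2 against 3, limma adjusted p = 0.00109). Id2 was at 57.4, 56.9 and 59.3 in the wild type and at 107 and 136 in the knockout, a rise of 1.04 ± 0.15 (limma adjusted p = 0.00256). Id3 was at 160, 157 and 130 against 301 and 475, a rise of 1.34 ± 0.21 (limma adjusted p = 0.00329). For each of the 3, knockout replicate 2 was the higher library. With the length trend removed, the 3 Id genes still rose by 1.84, 0.68 and 1.11 for Id1, Id2 and Id3 (limma adjusted p = 0.000402, 0.00267 and 0.00161), and all 3 passed without any 1 of the 5 libraries.

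Tcf3 was at 211, 203 and 206 in wild-type total RNA and at 160 and 143 in the knockout on the common scale, without overlap. It fell by 0.45 ± 0.13 (limma adjusted p = 0.0277), and by 0.32 with the length trend removed (adjusted p = 0.0385). Tcf12 was at 156, 170 and 167 against 132 and 90.9, and fell by 0.58 ± 0.17 (limma adjusted p = 0.0336), but stood at −0.03 with the length trend removed (adjusted p = 0.869). Tcf4 was at 174, 173 and 136 against 160 and 110, and its difference of −0.27 ± 0.19 did not pass (limma adjusted p = 0.303). Neither fall passed without wild-type total replicate 1, 2 or 3 (adjusted p = 0.138, 0.126 and 0.0787 for Tcf3, 0.0811, 0.114 and 0.113 for Tcf12), and without knockout replicate 1 Tcf4 did pass, at −0.53 (0.0196). In a fit over all 4 groups, which shares the larger spread of the polysomal libraries, 2 members were called, Id1 and Id2. With the authors' scaling in place of the common one the median of all genes was −0.13 in place of −0.02, with 1596 higher and 3113 lower against 2141 and 2272, and the same 5 members were called.

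In polysomal RNA no member passed between the genotypes. Limma called 0 of 6 genes, with 1 at an unadjusted p under 0.05 (Tcf4), edgeR called 0 and DESeq2 called 1, Tcf4, against 2.57% of 12184 genes called by limma, 1.62% higher and 0.952% lower. Over all genes, 15.9% had an unadjusted p under 0.05 in limma, edgeR called 2.14% and DESeq2 7.46%. Id2 was at 157, 261 and 208 in wild-type polysomal RNA on the common scale and at 224, 210 and 211 in the knockout, a difference of 0.07 ± 0.24 (limma adjusted p = 0.917, 95% interval −0.49 to 0.63). Id1 stood at 0.13 ± 0.52 (95% interval −1.07 to 1.33) and Id3 at 0.19 ± 0.58 (−1.14 to 1.53), intervals that still allow more than a doubling in either direction. Without knockout polysomal replicate 1 these 2 stood at −0.26 and −0.20, and Id2 at −0.01 under the authors' scaling.

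Tcf4 was the member with the largest estimate in polysomal RNA. It was at 97.0, 53.7 and 92.6 in the wild type and at 117, 200 and 187 in the knockout on the common scale, without overlap. The difference of 1.05 ± 0.32 did not pass (limma adjusted p = 0.155, 95% interval 0.32 to 1.78). It passed with the length trend removed (0.89, adjusted p = 0.0346), and without wild-type replicate 2 and knockout replicate 1 together (1.02, adjusted p = 0.00143), a fit chosen after seeing the data in which 17.3% of all genes were called. Tcf3 stood at −0.50 ± 0.33 (limma adjusted p = 0.525) and Tcf12 at 0.42 ± 0.35 (adjusted p = 0.623).

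**Figure D3:**
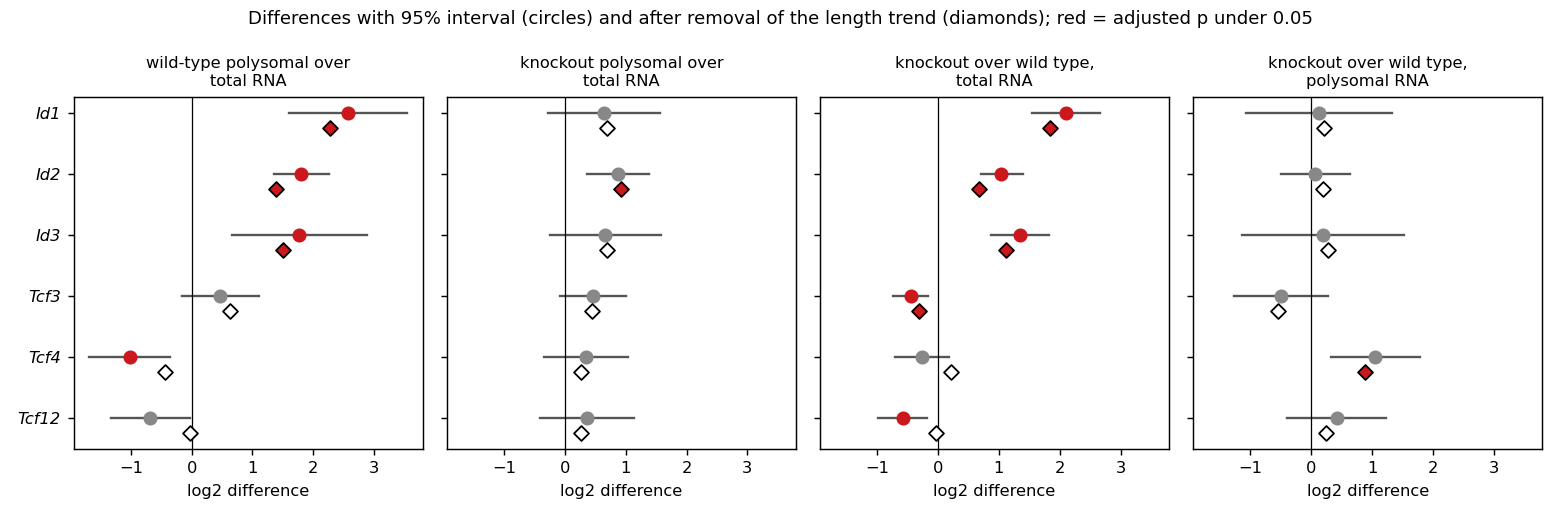
Log2 differences of the 6 genes in the 4 comparisons of groups, as circles with their 95% interval, and the same after removal of the length trend as diamonds; red fill marks an adjusted p under 0.05. The Id genes are red in both forms in wild-type polysomal over total RNA (1.77 to 2.57 before removal) and in knockout over wild-type total RNA (1.04 to 2.10), while Tcf12 moves to −0.02 and −0.03 there once the trend is removed.

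Divided by the deposited gene length in kilobases, on the common scale, the order of levels was Id3, Id1, Id2, Tcf3 in each of the 4 groups, followed by Tcf4 and Tcf12. The deposited length exceeds the annotated span of the gene for Id1 (1653 against 1160 bases) and Id3 (1786 against 1571). The order of Id1 and Id3 can thus depend on the length used. Levels per kilobase of span were not computed. In wild-type total RNA the levels per kilobase were 83.4 ± 9.07 (SD, n = 3) for Id3, 47.7 ± 8.64 for Id1, 45.7 ± 1.01 for Id2, 43.6 ± 0.831 for Tcf3, 12.6 ± 1.72 for Tcf4 and 10.7 ± 0.462 for Tcf12. Id1 and Id2 overlapped there, and so did Tcf4 and Tcf12. In wild-type polysomal RNA Id3 was at 355 ± 299 per kilobase, Id1 at 331 ± 237, Id2 at 165 ± 41.0 and Tcf3 at 64.7 ± 29.9, with Tcf12 at 6.89 ± 2.16 and Tcf4 at 6.36 ± 1.87. The neighbours Id3 and Id1, Id1 and Id2, and Tcf12 and Tcf4 overlapped. In the knockout, Id3, Id1, Id2 and Tcf3 were at 217 ± 68.8, 211 ± 75.8, 95.7 ± 16.4 and 31.9 ± 2.42 per kilobase in total RNA (n = 2) and at 354 ± 182, 336 ± 172, 170 ± 6.11 and 43.3 ± 7.91 in polysomal RNA (n = 3). Tcf4 and Tcf12 followed at 10.6 ± 2.76 and 7.25 ± 1.89, and at 13.2 ± 3.51 and 9.29 ± 3.05. Id3 and Id1 overlapped in both knockout groups and Tcf4 and Tcf12 in polysomal RNA.

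The balance between inhibitors and E proteins can be read within each library, free of scaling between libraries but not of the length trend or of the deposited lengths. The summed value per kilobase of Id1, Id2 and Id3 over that of Tcf3, Tcf4 and Tcf12 was 2.77, 2.72 and 2.43 in wild-type total RNA, and polysomal RNA gave 8.06, 14.0 and 8.49. In the knockout it was 7.49 and 14.2 in total RNA and 18.9, 10.4 and 9.64 in polysomal RNA. The 3 wild-type total libraries were thus below each of the other 8, and of the knockout total libraries replicate 1 lay just below the lowest polysomal value and replicate 2 among the polysomal values. As a description of RNA levels, this ratio says nothing of protein amounts. Tcf3 was 59.5% to 91.9% of the E protein sum in every library.

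**Figure D4:**
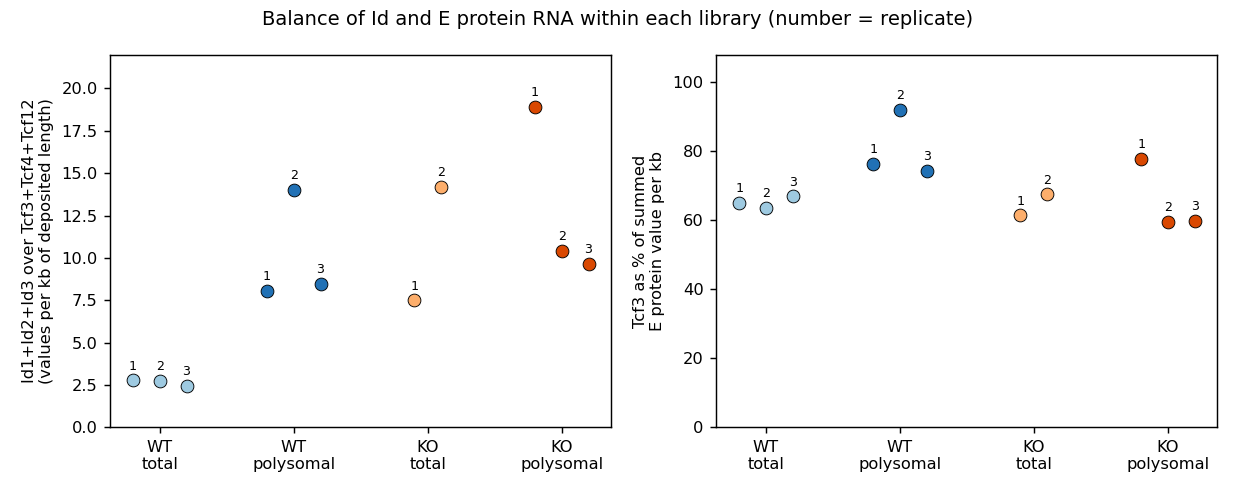
Left, summed Id over summed E protein value per kilobase in each library (linear y axis from 0); right, Tcf3 as a percentage of the E protein sum; points are libraries, with replicate numbers, in the 4 groups. The wild-type total libraries lie at 2.43 to 2.77 and the others at 7.49 to 18.9.

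Across the 11 libraries on the common scale, log2 levels of the 3 Id genes followed each other, with Pearson r of 0.977 for Id1 and Id3, 0.929 for Id1 and Id2 and 0.88 for Id2 and Id3. Tcf4 and Tcf12 had an r of 0.834. Tcf3 followed neither group closely (0.352 to 0.495 with the Id genes, −0.726 with Tcf4 and −0.545 with Tcf12), and Id3 and Tcf12 had an r of −0.782. The libraries share group, depth and length trend, so these values describe the pattern only. Among 9385 other genes with a mean of at least 10, the most alike were 1700012B09Rik, A930015D03Rik and Ddit3 for Id1 (r of 0.982, 0.981 and 0.979), Foxf2, Rnf138 and Mettl6 for Id2 (0.982, 0.972 and 0.969) and A930015D03Rik, Dph7 and Nfil3 for Id3 (0.986, 0.985 and 0.983). They were Mesdc1, Mtg2 and Gm7535 for Tcf3 (0.991, 0.985 and 0.985), Phf20, Itpkb and Lifr for Tcf4 (0.977, 0.968 and 0.966) and Ago1, 2610507B11Rik and Rb1 for Tcf12 (0.988, 0.985 and 0.985).

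The partners that E proteins pair with, and other factors of their class, formed a list of 21 genes, of which 7 were tested in wild-type polysomal over total RNA. There Twist2 was higher (1.37) and Myod1 (−0.88), musculin (Msc, −1.17) and Myog (−3.62) were lower, against the background shares given above, and the list's median was 0.18. In the knockout 1 of 5, Myog at −2.41, was lower, against 1.85% of all genes lower. In knockout over wild-type total RNA 3 of 6 were higher, Myf5 (0.98), Scx (0.89) and Atoh8 (1.22), and 2 were lower, Myod1 (−6.38) and Myog (−1.95). Over all genes 36.8% were called there, 17.9% higher and 18.9% lower. In polysomal RNA Myod1 was the 1 gene called of 6, lower as well, against 2.57% of all genes called. Id4, the fourth Id gene, has no row in either table.

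Of 12 genes of the Hes and Hey family, 6 were tested in each comparison. Hes1 rose in polysomal over total RNA of both genotypes, by 2.08 ± 0.39 in the wild type and 1.34 ± 0.28 in the knockout (limma adjusted p = 0.0115 and 0.047). Heyl and Bhlhe41 were lower in the wild type, at −1.60 and −0.82. That is 1 of 6 higher and 2 lower in the wild type, against 8.89% and 13.8% of all genes. In the knockout 1 of 6 was higher, against 0.911% of all genes. In knockout over wild-type total RNA Hes6 was higher (1.55), and Heyl (−2.32), Hey1 (−1.21) and Bhlhe40 (−1.22) were lower, the list's median being −0.83. These are 4 of 6 against 36.8% of all genes called, 17.9% higher and 18.9% lower. In knockout over wild-type polysomal RNA limma called 0 of 6, with 3 at an unadjusted p under 0.05, edgeR called 0 and DESeq2 called 1.

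The BMP list, receptors and Smad proteins that act on Id genes, held 18 genes, of which 14 or 15 were tested. In wild-type polysomal over total RNA the feedback inhibitor Smad7 was higher (2.32 ± 0.35, limma adjusted p = 0.00595) and the ubiquitin ligase Smurf1 lower (−0.77). That is 1 of 14 higher and 1 lower, against 8.89% and 13.8% of all genes. Smad7 was the 1 gene of 15 called for the knockout (1.69 ± 0.26, limma adjusted p = 0.0199), against 0.911% of all genes higher. In knockout over wild-type total RNA 4 of 14 were higher: the BMP-induced inhibitor Smad6 (1.46), Smad9 (1.40), the co-receptor Eng (0.95) and Smad7 (0.62). The receptor Bmpr2 (−1.14), Smurf1 (−1.06) and the shared Smad4 (−0.51) were lower. These are 7 of 14 against 36.8% of all genes called in that comparison, with a list median of −0.28. In polysomal RNA limma, edgeR and DESeq2 each called 0 of 14, with 0 at an unadjusted p under 0.05 in limma.

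Of 18 cofactors of E proteins and enzymes of Id protein turnover, 15 were tested. In wild-type polysomal over total RNA Cops5 (0.60) was higher and the ubiquitin ligase Huwe1 (−1.63) lower. That is 1 of 15 higher and 1 lower, against 8.89% and 13.8% of all genes. In the knockout limma, edgeR and DESeq2 each called 0 of 15, with 3 at an unadjusted p under 0.05 in limma. Over all genes limma called 2.76% there, and 22.7% had an unadjusted p under 0.05. In knockout over wild-type total RNA 2 were higher, Cops5 (0.54) and Stub1 (0.81), and 6 were lower, which is 8 of 15 against 36.8% of all genes called, 17.9% higher and 18.9% lower. Among the latter were Usp1, which removes ubiquitin from Id proteins (−1.13), its partner Wdr48 (−0.68), Skp2 (−0.86), and the E protein coactivators Ep300 (−0.96) and Crebbp (−1.20), with Cdc27 at −0.55. Cell type markers moved beside these results. Of the myoblast markers, limma called 5 of 7 lower in wild-type polysomal over total RNA (median −1.02), 2 of 5 lower in the knockout (−0.63), and 4 of 6 lower and 1 higher in knockout over wild-type total RNA (−1.1). In knockout over wild-type polysomal RNA 2 of 6 were lower (−0.72). Over all genes the shares called lower were 13.8%, 1.85%, 18.9% and 0.952% in these comparisons, in the order given. The share higher in knockout over wild-type total RNA was 17.9%. Of 7 fibroblast markers, 5 listed in the wild type summed to 762 to 818 in total RNA, and the 4 listed in the knockout to 332 to 493. These sums cover different genes, since Cd248 has no knockout row, and Lum and Thy1 are listed in neither table. The sums of all marker lists are on the authors' scaling, not on the common scale. Limma called 4 of 5, 1 of 3, 2 of 4 and 1 of 3 fibroblast markers lower in the comparisons given for myoblast markers, in that order. Their medians were −2.01, −0.56, −0.68 and 0.15. Of 8 myotube marker symbols 7 were listed (all but Mymk, whose older symbol Tmem8c is listed). They summed to 313 to 811 in wild-type total, 20.1 to 30.6 in wild-type polysomal, 150 to 169 in knockout total and 12.5 to 25.2 in knockout polysomal RNA. Limma called 7 of 7, 3 of 5, 3 of 7 and 0 of 5 of them lower in the same comparisons (medians −3.62, −2.41, −0.9 and −0.06). In the last, 3 of 5 had an unadjusted p under 0.05. The part of the cell type markers in the Id and E protein results was not tested. The adipocyte, osteoblast and lymphocyte lists had 1 listed marker each (Lpl, Runx2 and Ebf1), with Adipoq, Bglap and Ptprc not listed.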

How the data were processed

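Polysomal and total RNA of wild-type and Ddx27-/- C2C12 cells were sequenced. The tools STAR, HTSeq and edgeR and the build mm10 are named, without versions, per the submitters' processing notes. The authors deposited 1 table per genotype whose signal is a normalised read count of each gene in each library. All values were whole reads times 1 factor per library (100% within 0.001 reads). The deposited tables also hold the authors' log2 fold changes, p-values and FDR, and gene lengths. Columns of the knockout table match titles by group only, so knockout replicate numbers are those of the columns.

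Values were taken to log2 after adding 1. Genes reaching 1 in 3 or more fitted libraries entered limma 3.58.1 (mean-variance trend, R 4.3.3), with p-values adjusted by Benjamini and Hochberg and called under 0.05. The added 1 shrinks changes of low genes. Genotypes were compared over the 12590 genes listed for both. Knockout over wild type was fitted on a median-of-ratios scale. The genotype difference in polysomal over total RNA was fitted on the authors' scaling, with the median-of-ratios scale as an alternative. Alternatives included edgeR 4.0.16 and DESeq2 1.42.0 on recovered reads. On simulated counts with known changes, limma recovered 97% of 100 genes changed by 1 on the log2 scale for wild-type polysomal over total RNA (12363 genes) and 64% for the genotype difference (12312 genes). The simulation gave all genes the same spread, without a length trend, and changed only genes with many reads. The recovered shares therefore do not give the power in these libraries. Floors cover counting error only.

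The members and gene lists were chosen with earlier results of these data known. The named genes are all members, the called genes of the lists, and the 3 genes most correlated with each member. All 6 identifiers matched the name table. Promoters came from RefSeq (GRCm38.p6).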

Additional observations from a re-analysis of the deposited data

How the results depend on the processing

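Of 540 values of the 6 genes under alternatives, 485 kept their direction and side of the threshold, 20 lost a call, 18 gained one and 17 changed sign. No called value changed sign. The number of members called in wild-type polysomal over total RNA, 4, was 1 to 5 when 1 library was left out. In the knockout, 0 became 1 under quantile normalization, removal of the length trend, DESeq2 and 1 fit with 4 group means, and was 0 to 1 with 1 library left out. For the genotype difference, 0 became 2 with DESeq2 and 5 without the steepest polysomal library of each genotype, and stayed 0 with 1 library left out. For knockout over wild-type total RNA, 5 became 2 in 1 fit with 4 group means and was 3 to 6 with 1 library left out, where a lone knockout library is assumed to vary like the others. In polysomal RNA, 0 became 1 with the length trend removed, DESeq2, 1 fit with 4 group means and without the 2 steepest libraries. The cause was not tested.

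Signs changed only for values that had not passed. The genotype difference of Tcf3 was 0.15 under quantile normalization, 0.16 without the 2 steepest libraries and −0.18 to 0.30 with 1 library left out. Tcf4 in total RNA was 0.22 with the length trend removed and −0.53 to 0.00 with 1 library left out. In polysomal RNA Id1 was −0.26 to 0.68, Id2 −0.11 to 0.25 and Id3 −0.20 to 0.84 with 1 library left out, and Id2 was −0.01 under the authors' scaling.

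Same-numbered wild-type total and polysomal libraries did not deviate together (Pearson r of 0.272, −0.312 and −0.119 across 9402 genes). With 3 libraries per group that differ in length trend, this cannot decide whether they are pairs, and the labels give only the number. With the replicate block the wild-type count was 3, Tcf4 being at −1.02 (limma adjusted p = 0.0604), and 15.7% of genes were called in place of 22.7%. No paired analysis was possible for the knockout or between genotypes because the knockout columns carry no label number. Over all genes, the share called was 3.79% to 47.3%, 0.0419% to 13.7%, 0 to 23.2%, 10.5% to 60.6% and 0.208% to 17.3% over the alternatives of the 5 comparisons in the order above. In polysomal RNA the authors' scaling called 157 genes higher and 140 lower, against 197 and 116. Each member had at least 654 reads per library.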

Other observations

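Proportions within the families differed between libraries. Per kilobase of deposited length, Id3 was 1.65, 1.73 and 1.92 times Id1 in wild-type total replicates 1 to 3, and 0.867 to 1.16 times Id1 in the 8 other libraries. Id2 was 0.834, 0.884 and 1.23 times Id1 in wild-type total RNA. It was 0.341 to 0.902 times Id1 in wild-type polysomal, 0.406 and 0.534 in knockout total and 0.332 to 0.768 in knockout polysomal RNA. Tcf4 over Tcf12, which have similar lengths, was 0.978 to 1.34 in wild-type total and 0.829 to 1.03 in wild-type polysomal RNA, against 1.46 and 1.46 in knockout total and 1.32 to 1.59 in knockout polysomal RNA. These ratios were not tested, having been read after the values were seen.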
